A study of Ovis aries with 15 samples.

Results

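The genes of milk fat globule secretion and of the globule's membrane were examined in the mammary gland of sheep in late pregnancy and in lactation. The set was given as a list of 9 gene symbols (BTN1A1, XDH, CIDEA, PLIN2, PLIN3, MFGE8, MUC1, MUC15 and CD36), and a member was any row of the deposited expression table that carried one of them. Of the 9 symbols, 8 had 1 row each among the 24691 features of the table, and CD36 was not analysed here. Biopsies came from Romney ewes on day 135 of gestation or on day 15 post partum, and each library was made from 1 pool of RNA of several ewes. There were 9 late pregnancy libraries and 6 lactation libraries. In each state the pools fell into 3 groups, named for how the ewes' own dams had been fed in early gestation: HM (ad libitum), MM (maintenance) and LM (sub-maintenance), with maintenance feeding in mid to late gestation in all of them. Each of these groups held 3 pools in late pregnancy and 2 in lactation. The paper and the labels differ on the number of ewes in a lactation pool. According to the paper's methods ewes biopsied before lambing were biopsied again in lactation, but no source used here ties a lactation pool to a late pregnancy pool. The tests therefore treat the pools as independent. Their p-values rest on the spread between pools within a state, and the sharing of ewes between the states is not taken into account.

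Milk fat leaves the secretory epithelial cell as droplets that are wrapped in the apical plasma membrane. Triacylglycerol droplets form at the endoplasmic reticulum, carry perilipins such as PLIN2 and PLIN3 on their surface, grow by fusion and lipid transfer, and bud from the cell inside a membrane that holds butyrophilin (BTN1A1), xanthine dehydrogenase (XDH, also called xanthine oxidoreductase), lactadherin (MFGE8) and the membrane mucins MUC1 and MUC15. In mice, loss of BTN1A1 or of 1 copy of XDH disturbs the secretion of milk fat, and CIDEA, better known from brown adipocytes, is needed for it as well.

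Reads assigned to genes numbered 7597938 to 19823166 per late pregnancy library and 10352962 to 25679416 per lactation library. Reads on exons of a single member ranged from 225 (MUC1 in late pregnancy HM pool 2) to 84453 (BTN1A1 in lactation MM pool 1). Milk protein genes took 13.7 to 23.4% of the exon reads in late pregnancy and 71.3 to 75.8% in lactating gland, so the reads left for other genes differed between the states and the scaling between libraries matters to every change given below. Changes are log2 ratios of lactation over late pregnancy with their standard error, from edgeR's quasi-likelihood F-test on exon reads with TMM scaling, which sets the bulk of the genes level between libraries. CPM are counts scaled to the TMM library size. RPKM, as deposited, are exon reads scaled to the exon length and to the reads on genes, which serve to compare levels between genes, and on which every gene other than the milk protein genes is diluted in lactation. A gene was called at a Benjamini-Hochberg adjusted p under 0.05 over the 13345 genes tested. Lactation HM pool 1 stood apart, with 12.9% of its gene reads on introns against 5.74 to 6.54% in the other lactation libraries and the lowest milk protein share.

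All 8 members analysed were called more highly expressed during lactation, where 33.1% of all genes tested were called in that direction and 68.4% in either. For each of the 8, the lowest lactation library lay above the highest late pregnancy library in CPM, as it did for 20.2% of all genes. The members fell into an upper group with changes of 3.37 to 4.78 on the log2 scale (MFGE8, CIDEA, BTN1A1, MUC15 and MUC1), XDH at 1.49, and the perilipins PLIN3 and PLIN2 at 0.60 and 0.41. The median of all genes was -0.03. When library size alone was used for scaling, the median of all genes moved to -1.94, and XDH, PLIN3 and PLIN2 were then called lower in lactation, at -0.41, -1.30 and -1.50, whereas the upper group stayed higher at 1.47 to 2.88. Under library size alone 352 genes were called higher and 12705 lower, against 4419 and 4703 with TMM. In these bulk tissue libraries, fewer cells of a type and less RNA per cell cannot be told apart.

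**Figure D1:**
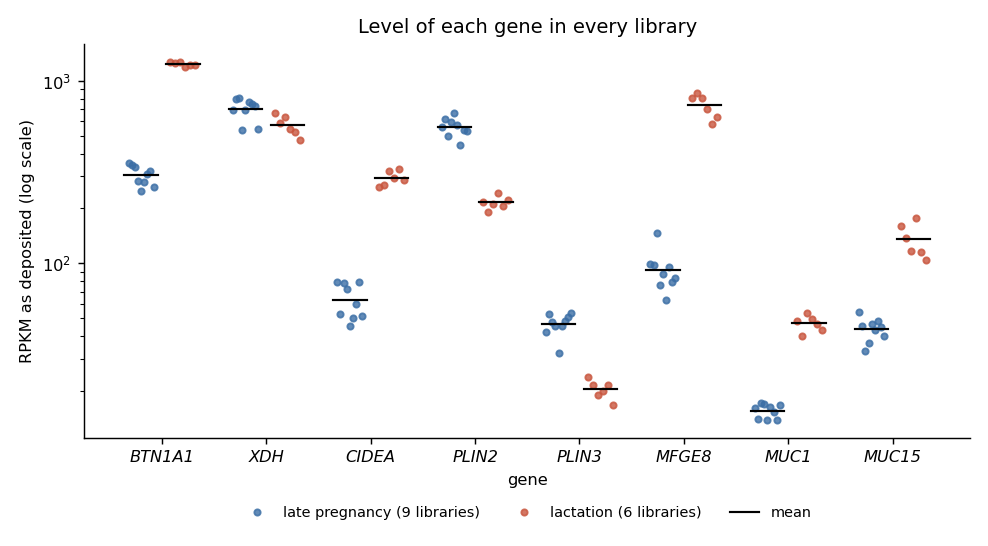
Deposited RPKM (log axis) of the 8 genes in each of the 9 late pregnancy and 6 lactation libraries, with 1 point per library and a bar at the mean of each state. BTN1A1 rises from 249 to 353 in late pregnancy to 1195 to 1273 in lactation, XDH is the only gene whose states overlap, and PLIN2 and PLIN3 lie lower in lactation on this scale.

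BTN1A1, the transmembrane protein of the apical membrane that is among the most abundant proteins of the globule membrane, lay on chromosome 20 (chr20:30523428-30529879 of build Oar_v3.1, 7 exons). Its RPKM was 249 at the lowest, 309.5 at the median and 353 at the highest in late pregnancy, and 1195, 1243 and 1273 in lactation. It was the most evenly expressed member of the lactating gland, with a coefficient of variation between libraries of 2.45% in RPKM, and it moved from rank 181 to rank 15 of all features by mean RPKM. Its change was 3.80 ± 0.10 (edgeR, adjusted p = 1.1e-16), from 571 ± 94.6 CPM (SD, n = 9) to 7966 ± 401 CPM (SD, n = 6).

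XDH, the molybdenum enzyme that oxidises hypoxanthine and xanthine and binds the cytoplasmic tail of BTN1A1 in the globule membrane, lay at chr3:92173733-92241272 with 36 exons. Its RPKM was 538, 728 and 803 at the lowest, median and highest in late pregnancy, and 477, 565 and 669.8 in lactation, so the states overlapped on this scale. XDH was the highest of the members before lambing and was already among the 118 highest features of the gland by RPKM. Relative to the bulk of genes it rose by 1.49 ± 0.10 (edgeR, adjusted p = 9.5e-11), from 1939.9 ± 305 to 5441 ± 669 CPM. Its position in lactation was rank 36, although its RPKM was lower there on average.

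CIDEA, a droplet protein that promotes the transfer of lipid between droplets in contact, lay at chr23:43145365-43155613 with 5 annotated exons that add up to only 660 bases. RPKM was 45.0, 59.8 and 79.3 at the lowest, median and highest in late pregnancy and 261, 291 and 328 in lactation, without overlap. The change was 3.99 ± 0.14 (edgeR, adjusted p = 4.3e-15). In late pregnancy 147 ± 20.01 reads fell on its introns for every 100 on its exons (SD, n = 9), and 131 ± 14.8 in lactation (n = 6), the highest such ratio of the members. Its RPKM rests on this annotated exon length, and a longer exon annotation was not tested.

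PLIN2, the main perilipin of milk-secreting cells, coats cytoplasmic droplets and protects them from lipases. The gene lay at chr2:87100140-87108080 (7 exons). Its RPKM was 445.5, 558 and 671 at the lowest, median and highest in late pregnancy, second among the members, and 191, 214 and 244 in lactation. On TMM-scaled counts it was 565 ± 64.7 CPM in late pregnancy and 751 ± 72.6 CPM in lactation, a change of 0.41 ± 0.08 (edgeR, adjusted p = 0.00011). The closest libraries were 631.9 CPM in late pregnancy and 672 CPM in lactation, so the groups were separate by a narrow margin. This smallest change of the 8 shrank to 0.20 (adjusted p = 0.024) when library sizes were taken without the milk protein genes and to 0.26 with upper quartile scaling.

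PLIN3, a perilipin that moves between the cytosol and small new droplets, lay at chr5:16878644-16900066 (8 exons). Its RPKM was 32.2, 47.4 and 53.3 (lowest, median and highest) before lambing and 16.8, 20.7 and 23.8 after it. In CPM it went from 60.2 ± 8.68 to 90.9 ± 8.49, a change of 0.60 ± 0.09 (edgeR, adjusted p = 1.3e-05). It was the lowest of the 8 in lactation by RPKM, at rank 960 of all features.

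MFGE8, the secreted glycoprotein that binds phosphatidylserine through its discoidin domains and integrins through its RGD motif, had the largest change of the members. The gene lay at chr18:19583534-19597141 (9 exons), and its RPKM was 63.1, 87.7 and 145.8 at the lowest, median and highest in late pregnancy and 582, 757 and 861 in lactation. The change was 4.78 ± 0.17 (edgeR, adjusted p = 3.6e-15), the 61st highest of all genes tested, from 120 ± 35.2 to 3282 ± 552 CPM. It was also the member that varied most between late pregnancy libraries, with a coefficient of variation of 29.4% in CPM.

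MUC1 and MUC15, heavily glycosylated mucins that span the apical membrane, rose to a similar extent. MUC1, at chr1:103952964-103957607 (8 exons), had RPKM of 13.8, 16.1 and 17.1 (lowest, median and highest) before lambing and 40.2, 47.4 and 53.4 after it. Its change was 3.37 ± 0.08 (edgeR, adjusted p = 5.7e-17). MUC15, at chr15:55404803-55417391 (5 exons), had RPKM of 33.0, 44.7 and 54.1 before lambing and 104, 127 and 178 after it, with a change of 3.42 ± 0.12 (edgeR, adjusted p = 4.3e-15). Late pregnancy libraries had only 20.7 to 25.8% of their MUC15 exon reads placed at 1 site alone and lactation libraries 21.2 to 22.8%, while for each of the other 7 members at least 98.3% were. The level of MUC15 is therefore uncertain, but its change was 3.35 on uniquely placed reads.

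The 8 members together made up 0.571 ± 0.054% of the exon reads before lambing (SD, n = 9) and 0.861 ± 0.0786% after it (n = 6). Of the reads outside the 7 milk protein genes, their share went from 0.696 ± 0.0825% to 3.38 ± 0.242%.

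Within each lane number that the column names carry, all 8 were again called higher. Of all genes, 3482 of 13287 tested were called higher in lane 7 and 3796 of 13720 in lane 8. BTN1A1 changed by 3.64 in lane 7 and 3.95 in lane 8, and PLIN2 by 0.33 (edgeR, adjusted p = 0.035) and 0.50 (adjusted p = 0.00037). Leaving out lactation HM pool 1, or any other single library, kept all 8 called, with changes of 0.37 to 0.44 for PLIN2 and 4.72 to 4.90 for MFGE8. In those fits 8891 to 9049 of all genes were called in either direction.

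**Figure D2:**
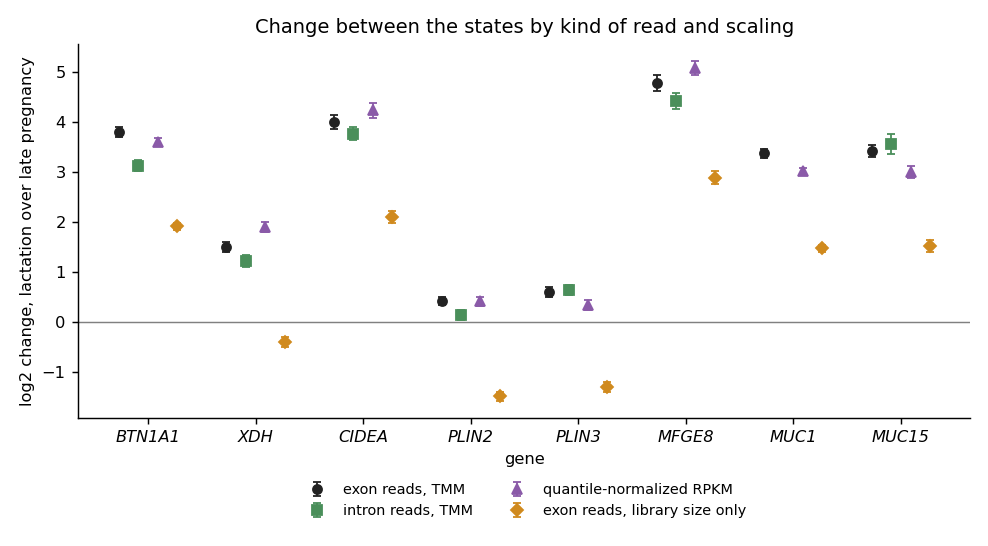
Log2 change of lactation over late pregnancy with its standard error for each gene, from exon reads with TMM scaling (circles), intron reads with TMM scaling (squares), quantile-normalized RPKM (triangles) and exon reads scaled by library size alone (diamonds). MUC1 has no square because its intron reads did not pass the filter, and XDH, PLIN2 and PLIN3 lie below 0 only for library size alone.

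Reads on introns, which can come from RNA not yet spliced, from unannotated exons or from overlapping genes, gave a second readout from the same libraries. Of the 7 members with enough intron reads, 6 were called higher in lactation, where 29.0% of the 10344 genes tested were. The changes were 4.41 ± 0.15 for MFGE8, 3.76 ± 0.14 for CIDEA, 3.56 ± 0.21 for MUC15, 3.12 ± 0.12 for BTN1A1, 1.22 ± 0.12 for XDH and 0.64 ± 0.10 for PLIN3. PLIN2 was the exception at 0.14 ± 0.10 (edgeR, adjusted p = 0.27), with 4.85 intron reads per 100 exon reads in late pregnancy and 4.21 in lactation. Intron reads of MUC15 were few in late pregnancy, at 3 to 38 per library. Those of MUC1 were fewer, at 2 to 9 per late pregnancy library and 7 to 33 per lactation library. Intron reads of MUC1 did not pass the filter on low values with this scaling, and the MUC1 changes that follow rest on these few reads. The scaling factors of the exon reads let MUC1 pass in all 15 libraries, and it was called higher at 2.65 (edgeR, adjusted p = 8.6e-09). PLIN2 was then at 0.21 (edgeR, adjusted p = 0.10), so that 7 of 8 members were called higher. With that scaling 3420 of the 10325 genes tested were called higher. Without lactation HM pool 1, with its high intron share, MUC1 was called at 2.63 (adjusted p = 3e-08) and PLIN2 was at 0.17 (adjusted p = 0.18). The exon and intron changes of a gene were not tested against each other.

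A ratio of 2 members in the same library does not depend on the scaling between libraries, and the 28 such ratios were compared between the states by an exact two-sided permutation test over the 5005 groupings of the libraries. After adjustment over the 28 pairs, 25 ratios differed, and for 19 of them no lactation library lay within the late pregnancy range. The 28 ratios share the same members, so they are not independent of each other. With 68.4% of all genes called between the states, many ratios of other genes may differ too. How many do was not counted, so these counts are not shown to be particular to the members. The smallest p that these groupings can give is 0.0004, which became 0.00059 after adjustment. BTN1A1 stood at 0.358 to 0.526 of XDH in late pregnancy and at 1.90 to 2.57 times XDH in lactation, a shift of 2.32 on the log2 scale (exact permutation p = 0.0004, adjusted p = 0.00059). BTN1A1 to PLIN2 moved from 0.371 to 0.695 up to 4.89 to 6.57.

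The 2 proteins that bind each other in the globule membrane thus changed places in transcript level. In RPKM so did 2 of the droplet proteins, CIDEA and PLIN2. CIDEA was 0.067 to 0.156 of PLIN2 before lambing and 1.21 to 1.59 times PLIN2 in lactation, a shift of 3.62 (exact permutation, adjusted p = 0.00059). That CIDEA came to lie above PLIN2 rests on its annotated exon length of 660 bases. In CPM it stayed below PLIN2 in lactation, at 462 ± 42.8 against 751 ± 72.6 CPM. XDH to PLIN2 went from 0.908 to 1.68 up to 2.14 to 3.09. The ratio that moved most was PLIN2 to MFGE8, which fell from between 3.41 and 9.14 to between 0.222 and 0.354.

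The 3 pairs whose ratio was not called lay inside the groups described above. PLIN2 to PLIN3 was 9.28 to 20.8 in late pregnancy and 8.94 to 13.3 in lactation (exact permutation, adjusted p = 0.27). MUC1 to MUC15 was 0.298 to 0.518 and 0.279 to 0.459 (adjusted p = 0.80). BTN1A1 to CIDEA was 3.89 to 6.59 and 3.72 to 4.87 (adjusted p = 0.084), and this ratio was called once late pregnancy LM pool 1 was left out, at a shift of -0.25. BTN1A1 to MUC15 lost its call without lactation MM pool 2, with a shift of 0.34 in place of 0.41. A ratio that was not called is not thereby shown to be constant.

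**Figure D3:**
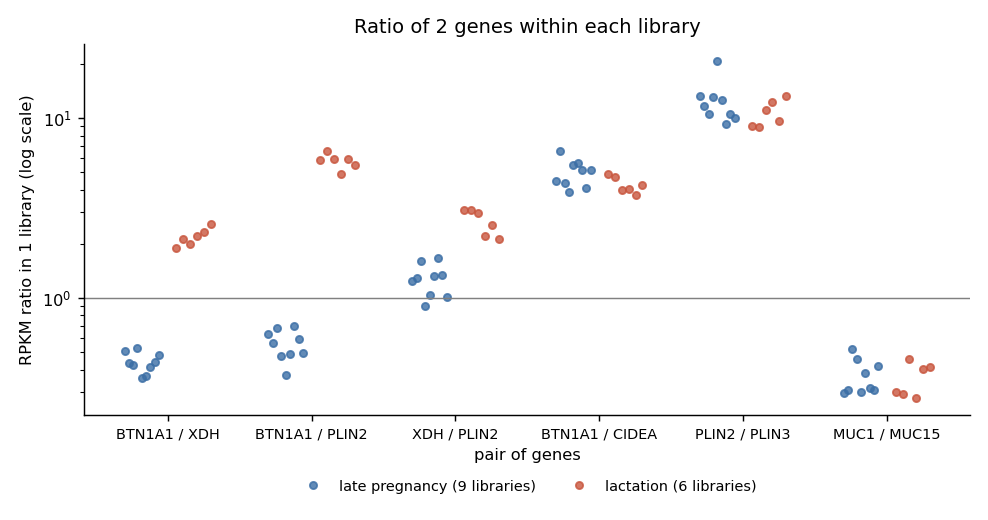
RPKM ratio of 6 pairs of genes within each library (log axis), with 1 point per library and a line at equal levels. BTN1A1 lies below XDH and PLIN2 in every late pregnancy library and above both in every lactation library, while the ratios of BTN1A1 to CIDEA, PLIN2 to PLIN3 and MUC1 to MUC15 overlap between the states.

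The order of the members by mean log2 RPKM in late pregnancy was XDH, PLIN2, BTN1A1, MFGE8, CIDEA, PLIN3, MUC15 and MUC1. In lactation it was BTN1A1, MFGE8, XDH, CIDEA, PLIN2, MUC15, MUC1 and PLIN3. Neighbours in these orders were compared within libraries by an exact sign-flip permutation test, adjusted over the 14 neighbour pairs of both states, and 13 differed. The exception was PLIN3 over MUC15 in late pregnancy, higher in 6 of 9 libraries with a mean log2 difference of 0.09 (exact permutation, adjusted p = 0.43). XDH was above PLIN2 in 8 of 9 late pregnancy libraries by 0.32 (exact permutation, adjusted p = 0.034). In lactation every neighbour pair had the same order in 6 of 6 libraries, which with 6 libraries gives the smallest p possible, 0.031, and with any lactation library left out the 7 pairs of that state cannot reach the threshold. On uniquely placed reads MUC15 fell below MUC1 in both states, with log2 differences of -0.6367 in late pregnancy and -0.6642 in lactation.

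For each member, the 3 nearest other genes over the 15 libraries were taken by log2(CPM + 1), set against each gene's own late pregnancy mean. The 6391 genes compared had a mean of at least 10 CPM, and features with a LOC symbol were left out. This distance includes the step between the states, so it does not show that genes vary together within a state. The nearest genes of BTN1A1 were BDH1, the casein gene CSN2 and CIDEA, with root mean square differences of 0.20, 0.21 and 0.22 on that log2 scale. CIDEA had CSN2, BTN1A1 and BDH1, with 0.16 for CSN2. MUC1 had SOD3, LPCAT4 and the casein gene CSN3, at 0.17, 0.18 and 0.20. MUC15 had LPCAT4, GNAI1 and MUC1, at 0.26 to 0.28. MFGE8 had LIN7A, EXTL1 and NR4A1, at 0.25 to 0.29, but these genes were at 0.224, 0.251 and 1.27 CPM in late pregnancy, where the added 1 compresses differences, and their fitted changes were 7.15, 7.003 and 5.84 against 4.78 for MFGE8. XDH had SMTN, SDC2 and CMTM6, at 0.17. PLIN2 had TMEM59, PAPD5 and POLR2C, at 0.09 to 0.10, and PLIN3 had CDT1, DGKA and ADCY6, at 0.14 to 0.15. BTN1A1 and CIDEA were thus each among the 3 nearest genes of the other, and MUC1 was among those of MUC15 but not the reverse.

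Genes that work with the members were counted on lists of their own. Across 8 such lists, 70 genes were tested, of which 40 were called higher and 16 lower in lactation with TMM, and 9 and 60 with library size alone. The counts and directions that follow are those with TMM, and the genes named come from a rule on the size of the change. Beside these lists and the marker lists further below, all 13345 genes tested gave 4419 called higher (33.1%) and 4703 called lower.

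Among other proteins known from the milk fat globule membrane, 17 of the 21 genes tested were called higher and 2 lower, with a median change of 1.02 against -0.03 for all genes. The genes that led the list stayed higher with library size alone. LPL, the lipase that frees fatty acids from blood lipoproteins, changed by 6.69 ± 0.20, from 12.7 ± 4.37 to 1309 ± 119 CPM. SLC34A2, a sodium-dependent phosphate transporter, changed by 5.74 ± 0.15, and FABP3, the fatty acid binding protein of milk fat synthesis, by 4.66 ± 0.14. FABP4 and CD9 were not called, at 0.05 ± 0.12 and 0.11 ± 0.05.

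Of the genes of lipid droplet coat and turnover, 9 of 19 were called higher and 4 lower, with a median change of 0.10. RAB18, a small GTPase of droplets, changed by 2.53 ± 0.09, from 181 ± 27.4 to 1047 ± 59.6 CPM, and remained above 0 at 0.63 with library size alone. CIDEB, a relative of CIDEA, changed by 1.08 ± 0.30 but from only 0.701 to 1.59 CPM, and turned to -0.80 with library size alone. G0S2, an inhibitor of the lipase PNPLA2, was lower at -1.27 ± 0.14. PNPLA2 and SPG20 were not called, at -0.03 ± 0.13 and -0.05 ± 0.05. The 3 other perilipins of the table stayed far below PLIN2 and PLIN3 in either state, with a mean of at most 1.75 CPM for PLIN4, 0.672 CPM for PLIN1 and 0.0109 CPM for PLIN5.

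XDH needs a molybdenum cofactor, and 5 of the 6 genes tested for making that cofactor or using it were called higher, with a median of 0.82. MOCS1, of the first step of its synthesis, changed by 2.48 ± 0.08, from 12.4 ± 1.67 to 69.5 ± 6.56 CPM, and stayed higher with library size alone at 0.58. SUOX, sulfite oxidase, changed by 0.94 ± 0.06, and MOCS2, of the second step, by 0.82 ± 0.06, but both turned to lower with library size alone, at -0.96 and -1.08. The exception, named after its values were seen, was MOCOS, the sulfurase that activates the cofactor of XDH, which was called lower at -0.93 ± 0.14 (edgeR, adjusted p = 8.6e-06), from 8.37 ± 1.28 to 4.43 ± 1.00 CPM, with states that overlapped.

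Most relatives of BTN1A1 and of the mucins had too few reads to be tested. Of 6 further butyrophilin family genes with a row, 2 were tested, and BTNL9 was not called at -0.21 ± 0.13, while MOG, named after its values were seen, was called lower at -0.86 ± 0.19. Of 5 further membrane mucins only MUC20 passed the filter, and it was called lower at -0.92 ± 0.15, from 34.8 ± 7.26 to 18.2 ± 4.67 CPM. It too was named after its values were seen. MUC3A, MUC12 and MUC13 had at most 1 read in any library.

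Of MFGE8's relative EDIL3 and the integrin genes ITGAV, ITGB3 and ITGB5, only ITGAV was called, higher at 0.61 ± 0.11 with TMM but at -1.29 with library size alone. ITGB5 was at -0.03 ± 0.08. Of the scavenger receptors and partners of CD36, 5 of 12 were called higher and 5 lower. LYN, a tyrosine kinase, changed by 2.79 ± 0.09 and the related kinase FYN by -1.14 ± 0.11. Of the genes of membrane fusion in milk secretion, 5 of 8 were called higher and 2 lower, STX3 and STXBP2 at 1.28 ± 0.14 and 1.06 ± 0.07 and STXBP5 at -1.23 ± 0.15. All 8 of these were called lower with library size alone. VAMP8, a vesicle SNARE, was not called at -0.15 ± 0.08.

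**Figure D4:**
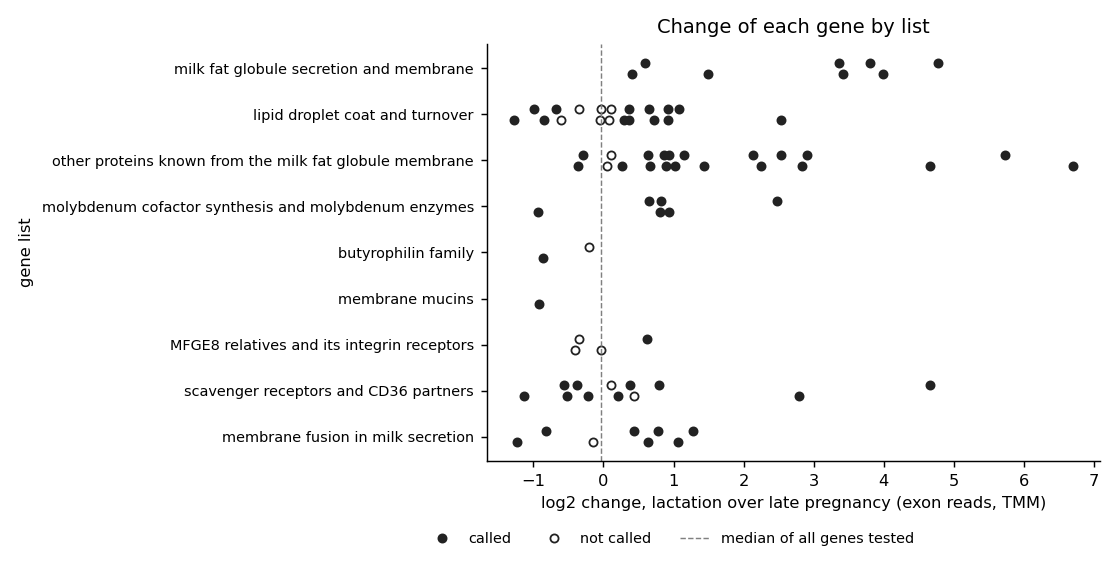
Log2 change of lactation over late pregnancy (exon reads, TMM) of each gene tested, by list, with filled circles for genes called at an adjusted p under 0.05, open circles for the others and a dashed line at the median of all genes tested (-0.03). The 8 genes of milk fat globule secretion and membrane lie between 0.41 and 4.78, and a gene on 2 lists is drawn in both.

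Markers of the cell types in the biopsies were summed in each library. The 12 luminal epithelial markers, of the cells that secrete milk fat, summed to 1941 to 2313 CPM in late pregnancy and 2706 to 2963 CPM in lactation, with 5 called higher, 2 lower and a median change of 0.10. KRT19 and the mammary transcription factor ELF5 were among the higher, at 0.61 ± 0.11 and 0.81 ± 0.05, and KRT7 was lower at -1.12 ± 0.09. KRT19 and ELF5 were also the largest parts of the sum. Their means were 622 and 629 CPM in late pregnancy and 947 and 1100 CPM in lactation. Fibroblast markers summed to 1341 to 2137 CPM and 638 to 1033 CPM, with 6 of 9 called lower and LUM, FBLN1 and POSTN not called. The largest parts of this sum were COL3A1, COL1A2 and COL1A1. Their means were 835, 402 and 283 CPM in late pregnancy and 313, 147 and 108 CPM in lactation. Of 9 endothelial markers 7 were called lower, with sums of 229.8 to 313 CPM and 162 to 225 CPM. Of 8 macrophage markers 5 were called lower and CD14, also on the globule membrane list, higher at 2.13 ± 0.13, with sums of 164 to 211 CPM and 92.1 to 129 CPM. Myoepithelial markers summed to 708 to 791 CPM and 655 to 955 CPM, with 3 of 7 called higher and 2 lower. The part of these shifts in the members' changes was not tested.

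PLIN2, CIDEA and XDH are also transcribed in fat cells. Of the adipocyte markers, LEP, PLIN1 and CIDEC were at means of at most 0.108, 0.672 and 0.907 CPM in either state, but ADIPOQ was at 10.1 CPM in late pregnancy and 7.53 CPM in lactation, CFD at 21.7 and 20.6 CPM, PNPLA2 at 17.6 and 16.9 CPM and FABP4 at 322 and 333 CPM. The adipocyte list as a whole, 11 genes in the table, summed to 282 to 492.8 CPM in late pregnancy and 1543 to 1862 CPM in lactation, of which LPL alone made up 1309 CPM on average in lactation. Of the 8 adipocyte genes tested, LPL was called higher, RBP4 lower at -1.07 ± 0.22, and 6 were not called. The part of fat cells in the members' levels was not tested. Of the brown adipocyte genes LHX8 and ZIC1 had no read in any library, and of the 3 tested DIO2 was called higher at 4.88 ± 0.14 and PPARGC1A, named after its values were seen, lower at -1.80 ± 0.44.

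The feed of the ewes' dams was compared within each state, over 9 libraries in late pregnancy and 6 in lactation. In late pregnancy no gene of 13747 (0%) was called, and 571 had an unadjusted p under 0.05, among them BTN1A1, MFGE8 and PLIN2, while DESeq2 called 20. BTN1A1 was at 648, 671 and 718 CPM in the HM pools, 467, 569 and 573 CPM in the MM pools and 432, 513.5 and 546 CPM in the LM pools. MFGE8 was at 128, 141 and 201 CPM in the HM pools, 98.0, 103 and 122 CPM in the MM pools and 80.1, 101 and 106 CPM in the LM pools. For both genes the HM pools, whose dams had been fed ad libitum, lay above all others, and the MM and LM pools overlapped. How many of the 13747 genes had HM pools apart from the rest was not counted. Such a pattern is therefore not shown to be particular to any member. By the column names every LM pool was in lane 8, while HM and MM pools were in lanes 7 and 8. Lane was not fitted in the tests of the dam groups, so feed and lane are partly mixed in them.

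The adjusted p over the 3 dam groups in late pregnancy was 0.82 for BTN1A1 and 0.77 for MFGE8 in edgeR, and 0.072 and 0.018 in DESeq2, so MFGE8 was called by the second tool alone. Without late pregnancy HM pool 3, which had the highest MFGE8 level, the edgeR values were 0.94 and 0.99. The milk protein genes moved with these levels, at 18.1 to 23.4% of exon reads in the HM pools, 13.7 to 17.7% in MM and 13.8 to 17.5% in LM, and their part was not tested. PLIN2 was lowest in the MM pools, at 447 to 519.9 CPM against 535 to 628 CPM in HM and 572 to 631.9 CPM in LM (edgeR, adjusted p = 1). XDH was at 2096 to 2356 CPM in the HM pools, above the other pools, which reached 2070.5 CPM (adjusted p = 1). The other 4 members had unadjusted p of 0.1 to 0.51 in edgeR.

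**Figure D5:**
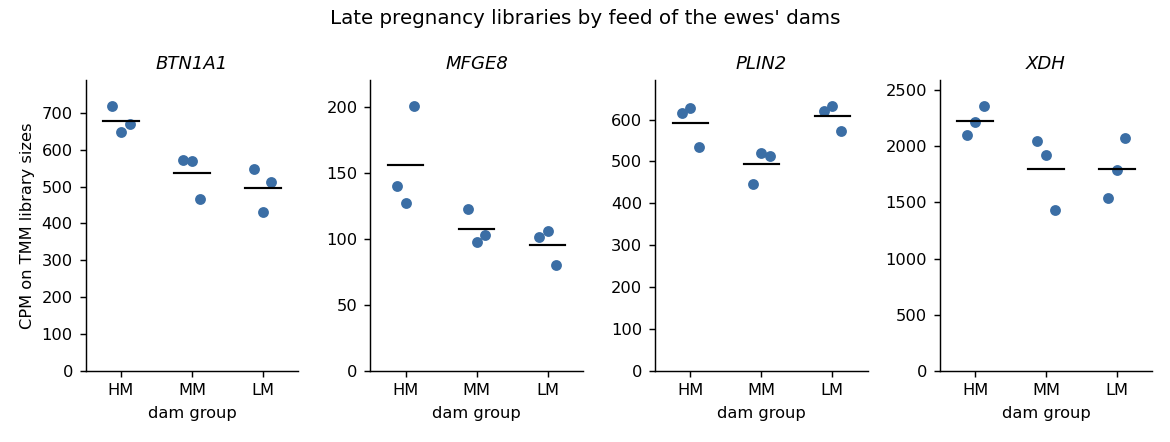
CPM on TMM library sizes of 4 genes in the 9 late pregnancy libraries by dam group (HM ad libitum, MM maintenance, LM sub-maintenance feeding in early gestation), with 1 point per library and a bar at the mean. The HM pools lie highest for BTN1A1 (648 to 718 CPM) and MFGE8 (128 to 201 CPM), and no gene of the 4 was called by edgeR.

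In lactation, with 2 pools per group, 1 gene of 11777 (0.00849%) was called by edgeR and 36 by DESeq2, and no member was called by either. In edgeR 896 genes had an unadjusted p under 0.05, MFGE8 and MUC15 among them. The lowest adjusted p of a member in edgeR was that of MFGE8, at 0.61. It was at 3437 to 3967 CPM in HM, 2431 to 2955 CPM in MM and 3184 to 3719.9 CPM in LM pools, so that its MM pools lay below the rest. The MM pools were also the lowest for XDH, at 4676 to 4711 CPM, and for MUC15, at 621 to 623 CPM. How many of all genes had MM pools below the rest was not counted. BTN1A1 was within 7349 to 8371 CPM over all 6 pools, and no dam group lay apart. In lactation the HM pools were in lane 7 and the LM pools in lane 8, so feed and lane cannot be told apart between these groups. The interaction of state and dam group gave no call in 13345 genes (0%), with 876 genes at an unadjusted p under 0.05 and none of them a member, and 19 calls in DESeq2, again none of a member. The change between the states was therefore not shown to differ between the dam groups for any member, and the lowest adjusted p of a member in edgeR was 0.76, shared by BTN1A1 and MFGE8.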

How the data were processed

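The authors sequenced paired reads of each library, mapped them in CLC Genomics Workbench and deposited 1 table for all 15 libraries. The submitters' processing notes name build Oar_v3.1, the paper gives a later version, and coordinates are as deposited. The counts as deposited are unnormalized reads on exons and on whole genes, given for all reads and for those placed at 1 site. RPKM from the authors were recomputed from the counts to within 3.5e-07 of their size. The authors' quantile-normalized RPKM are a signal with the same sorted values in every library. The authors' columns of fold changes, p-values and false discovery rates hold their own comparisons and were not used. Other deposited columns annotate the features, and lengths and positions come from them.

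Tests on counts ran in R 4.3.3 and edgeR 4.0.16, by filterByExpr, TMM scaling, the quasi-likelihood F-test and Benjamini-Hochberg adjustment over all genes tested, without covariates. The procedure was tested on simulated data in which far fewer genes changed than were called here, with equal numbers up and down. No shift of the milk protein share was built in, so that test does not cover the scaling under such a shift. Intron reads are reads on the gene less those on exons, with scaling of their own. Alternatives used DESeq2 1.42.0, limma 3.58.1 on log2 values with pseudocounts of 1 or 0.1, other scalings and filters, and each library left out in turn. Samples were grouped by their labels. Ratios and orders used exact permutation tests in Python 3.11.15 with numpy 2.4.6. The members, gene lists and tests were chosen with earlier results of these data known. All members were named. Of each list, at most 3 called genes with the largest change, no overlap between the states and a mean of at least 1 CPM were named, and at most 2 genes not called with at least 10 CPM. Precision rests on the spread between libraries, of 7597938 to 25679416 reads on genes each. Reads were counted without molecular identifiers. Listed genes without a row under their symbol were not analysed here.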

Additional observations from a re-analysis of the deposited data

Results flagged for a closer look

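Values far from the rest of their group were looked for in 32 groups (8 genes, 2 states, exon and intron reads), by the gap of the highest or lowest library to its neighbour as a share of the range, and chance gives about 1 such group in 20. There were 5, all in late pregnancy. MFGE8 in HM pool 3 was the highest on exon reads, at 201 CPM against 141 CPM for the next library and 80.1 CPM for the lowest, and the highest on intron reads as well, at 113 CPM against 69.3 CPM for the next. PLIN3 in LM pool 2 was the lowest on exon reads, at 38.9 CPM against 57.9 CPM for the next library and 68.8 CPM for the highest. PLIN3 in HM pool 2 was the highest on intron reads, at 303 CPM against 234 CPM for the next. MUC1 in LM pool 3 was the lowest on intron reads, at 0.642 CPM against 2.24 CPM for the next.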

How the results depend on the processing

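Of the settings tried for the comparison of the states, those that changed the direction of a member were library size alone and limma-trend on log2(RPKM + 1). Both gave 5 members called higher and 3 lower. With library size alone XDH was at -0.41, PLIN2 at -1.50 and PLIN3 at -1.30, where the median of all genes was -1.94. With limma-trend they were at -0.29, -1.37 and -1.14, where that median was -1.30. The 70 other genes of the lists were called higher in 9 cases and lower in 60 with library size alone, against 40 and 16. With upper quartile scaling 3420 genes were called higher and 5990 lower, and with library sizes that leave out the milk protein genes 3041 and 6274, with medians of -0.18 and -0.23. In the dam groups of late pregnancy DESeq2 called 1 member, MFGE8. The shift of the MUC1 to MUC15 ratio was 0.0275 on uniquely placed reads, against -0.0389, and ranged from -0.1163 to 0.0275 with a library left out. The log2 difference of MUC15 over MUC1 became -0.6367 in late pregnancy and -0.6642 in lactation on uniquely placed reads. The neighbours that differ numbered 6 to 13 with a library left out, because fewer than 6 lactation libraries cannot pass.

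Pool numbers were shared between the groups. Lactation and late pregnancy pools of 1 dam group and number correlated at -0.05 to 0.12 in their deviations from the state means. Among the late pregnancy pools the partner of the same number ranked from 1 (LM pool 1) to 9 (MM pool 2). Such correlations cannot show whether pools of the same number share ewes. With the replicate block 8464 genes were called in place of 9122, all 8 members among them, and none of the 13747 genes was called over the dam groups of late pregnancy, where 629 had an unadjusted p under 0.05 in edgeR and DESeq2 without the block called 20. The block was not fitted for the dam groups of lactation or for the interaction. Intron reads of MUC1 passed the filter only with the scaling factors of the exon reads or without lactation HM pool 1, and 5 lactation libraries cannot place neighbouring levels. The cause of these differences between settings was not tested.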
